A study of Homo sapiens with 3 samples.

Results

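Transcripts of MCL1, a survival gene of the BCL2 family, stood at 49.7 counts per 1000000 in myeloma cells cultured alone and at 272 in myeloma cells that had shared a dish with stromal cells for 4 h. They are followed here with those of 9 other genes of the family, 10 in all: MCL1, BCL2, BCL2L1, BCL2L11, PMAIP1, BBC3, BID, BIK, BAX and BAK1. They were chosen by their symbols, and all 10 were found among the 43913 genes listed in the union of the 3 count tables. Proteins of this family decide at the outer mitochondrial membrane whether a cell goes into apoptosis. The survival members (MCL1, BCL2 and BCL-XL, the product of BCL2L1) hold the death members in check. BAX and BAK1 are the members that can oligomerise into a pore that lets cytochrome c out. The BH3-only members (BIM from BCL2L11, NOXA from PMAIP1, PUMA from BBC3, BID and BIK) either bind and neutralise the survival proteins or activate the pore-formers directly. Myeloma cells are known for their dependence on MCL1, and contact with marrow stroma is known to protect them from cell death.

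RNA was counted in single cells by Drop-seq, in which each cell shares a droplet with a barcoded bead and each captured RNA molecule carries a unique molecular identifier (UMI), so that a UMI stands for 1 molecule. There were 3 libraries, 1 for each condition, from 2 established human cell lines: MM.1S, a multiple myeloma line labelled as B lymphoblasts, in monoculture; HS-5, a bone marrow stromal line, in monoculture; and the coculture of MM.1S with HS-5, for 4 h by the labels. None of the groups received a drug, and per the labels about 4000 cells were sequenced for each. The tables held 3994 barcodes and 10433182 UMIs for the MM.1S monoculture (median of 2183 UMIs per barcode), 3865 and 6143448 for the HS-5 monoculture (949), and 3963 and 3981392 for the coculture (789). Each condition being 1 library, no test between conditions was possible, no p-value is given, and the effect of culture and that of the library cannot be told apart. All intervals below are exact 95% intervals and cover counting error only.

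Barcodes with 200 or more detected genes were kept as cells, and those of the coculture were divided by line with 82 genes at least 50-fold higher in the MM.1S monoculture and 231 at least 50-fold higher in the HS-5 monoculture, none of them a member. This gave 4 groups: 3947 MM.1S monoculture cells, 1640 MM.1S cells in coculture, 3732 HS-5 monoculture cells and 2106 HS-5 cells in coculture. A further 110 coculture cells (2.85%) showed genes of both lines or too few line-specific UMIs and were left out. UMIs were summed over the cells of each group and scaled to counts per 1000000 UMIs (CPM). In MM.1S cells in coculture, which held 1327039 UMIs in all with a median of 669.5 per cell, 3 counts were worth 2.26 CPM, against 0.288 CPM in the MM.1S monoculture.

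The labels were compared with fixed marker lists. The summed level of 10 plasma cell markers was 10100 CPM in MM.1S monoculture cells and 6900 in coculture, against 209 and 224 in HS-5 cells. JCHAIN (6660 CPM) and MZB1 (2530 CPM) made up most of the MM.1S monoculture sum. Both, like IL6 among the stromal markers below, meet the limits for the line-specific genes that divided the coculture cells. The marker sums in coculture were thus partly set by that division and are no check of it. SDC1, the plasma cell marker CD138, went against its label and was 2-fold or more higher in the HS-5 monoculture than in MM.1S cells. The summed level of 11 stromal markers was 8020 and 8770 CPM in HS-5 cells in monoculture and coculture and 2910 and 3890 CPM in MM.1S cells, a weaker separation. Among them IL6 was at 0 in the MM.1S monoculture, but FN1 was 2-fold or more higher there than in HS-5 cells. Markers of macrophages, T cells and endothelium summed to 18.1 CPM or less in every group. In coculture, free RNA from the other line, judged by that line's specific genes, was estimated at 1.71% of the RNA counted in MM.1S cells and at 0.786% of that in HS-5 cells. The same genes divided the cells, and cells with genes of both lines were left out, which holds these estimates down. Of the barcodes, 83 occurred in more than 1 library.

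Among the survival members, MCL1 (chromosome 1, 150574551 to 150579738 on the minus strand; coordinates throughout are GRCh38, GENCODE release 29) encodes a short-lived protein that binds BIM, NOXA and BAK. Its level was 49.7 CPM in MM.1S monoculture cells (interval 45.5 to 54.1, 518 UMIs) and 272 CPM in MM.1S cells in coculture (245 to 302, 361 UMIs). In HS-5 cells it was 252 CPM in monoculture (240 to 265, 1550 UMIs) and 222 CPM in coculture (204 to 241, 551 UMIs). The MM.1S monoculture thus lay far below the other 3 groups, whose neighbours in the order of levels had overlapping intervals. In MM.1S cells the level was 5.48-fold higher in coculture (interval of the fold 4.78 to 6.28), and in HS-5 cells it was 0.880 of the monoculture level (0.797 to 0.970). Free RNA from HS-5 cells would account for 3.8 of the 272 CPM. MCL1 exons overlap ADAMTSL4-AS1 on the same strand, so reads in the shared stretch could belong to either gene.

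The difference in MCL1 was also seen in a narrower range of depth: with only cells of 500 to 1500 UMIs, the level was 64.5 CPM in 821 MM.1S monoculture cells (49.8 to 82.3) and 295 CPM in 1068 in coculture (260 to 333). The depths within that range still differed, with medians of 1232 UMIs in monoculture and 755.5 in coculture. On the log2 scale with a pseudocount of 1 CPM, the MM.1S ratio of MCL1 was 2.43. That was higher than the ratio of 98.8% of the 7836 genes with a mean level of 10 CPM or more over both MM.1S groups. The MCL1 ratio lay between 1.95 and 2.47 under 15 other ways of processing the counts.

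BCL2 (chromosome 18, 63123346 to 63320128, minus strand), the founding survival gene and the target of venetoclax, differed more between the lines than between the cultures. Its level was 47.3 CPM in MM.1S monoculture cells (43.3 to 51.7) and 39.2 CPM in coculture (29.3 to 51.4). HS-5 cells had 8.79 CPM in monoculture (6.60 to 11.5) and 6.04 CPM in coculture (3.38 to 9.97). Within each line the intervals of both cultures overlapped, and between the lines they did not. The fold between cultures was 0.828 in MM.1S cells (interval 0.609 to 1.10), which spans 1, and 0.687 in HS-5 cells (0.360 to 1.24). With only cells of 500 to 1500 UMIs, MM.1S cells had 62.5 CPM in monoculture (48.1 to 80.0) and 34.1 CPM in coculture (23.0 to 48.7). The log2 ratio in MM.1S cells ran from -0.85 in that range of depth to 0.27 in another setting.

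BCL2L1 (chromosome 20, 31664452 to 31723989, minus strand) encodes BCL-XL, and in a shorter splice form a death protein, which counts per gene do not separate. In MM.1S cells it stood at 6.71 CPM in monoculture (5.23 to 8.48, 70 UMIs) and 21.1 CPM in coculture (14.0 to 30.5, 28 UMIs), a fold of 3.14 (1.95 to 4.94). In HS-5 cells it stood at 39.9 CPM in monoculture (35 to 45.2, 245 UMIs) and 21.4 CPM in coculture (16.0 to 27.9, 53 UMIs), a fold of 0.535 (0.390 to 0.723). The levels of both lines were thus far apart in monoculture, moved in opposite directions and met in coculture. The ABALON gene overlaps its exons on the other strand, and whether counting used strand is not given in the sources used here. The promoter of BCL2L1 is shown because it was the only member among the 8 found in the RefSeq promoter table (GRCh38.p14) that held the TATA letters TATAAA on either strand within 250 bases before its start, a run found in 11.1% of the 27305 promoters of that table. The stretch chr20:31723990-31724213 (minus strand, 224 bases before the outermost annotated start) holds it at 2 places, given in capitals:
BCL2L1: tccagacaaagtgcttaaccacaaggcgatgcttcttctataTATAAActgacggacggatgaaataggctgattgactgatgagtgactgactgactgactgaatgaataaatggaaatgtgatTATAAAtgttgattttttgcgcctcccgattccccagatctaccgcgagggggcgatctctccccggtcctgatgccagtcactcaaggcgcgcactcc

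The BH3-only members did not move together. In MM.1S cells, BCL2L11 (chromosome 2, 111119378 to 111168447, plus strand), whose product BIM binds every survival protein, stood at 28.7 CPM in monoculture (25.5 to 32.1) and 50.5 CPM in coculture (39.1 to 64.1). HS-5 cells had 5.21 CPM of it in monoculture (3.56 to 7.35) and 6.04 CPM in coculture (3.38 to 9.97). MM.1S cells thus had more BCL2L11 than HS-5 cells in both cultures, and the intervals of the MM.1S cultures did not overlap (fold 1.76, interval 1.33 to 2.30). Its exons overlap MIR4435-2HG on the other strand.

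PMAIP1 (chromosome 18, 59899948 to 59904306, plus strand) encodes NOXA, which binds MCL1 and promotes its degradation. It stood at 64.7 CPM in MM.1S monoculture cells (59.9 to 69.8) and 100 CPM in coculture (83.9 to 119). In HS-5 cells it stood at 90.7 CPM in monoculture (83.3 to 98.5) and 103 CPM in coculture (90.9 to 117). The MM.1S monoculture was the lowest of the 4 groups, and the intervals of the other 3 overlapped. The fold was 1.55 in MM.1S cells (1.28 to 1.87) and 1.14 in HS-5 cells (0.977 to 1.32).

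BID (chromosome 22, 17734138 to 17774770, minus strand), which caspase-8 cleaves to carry a death receptor signal to mitochondria, was the BH3-only member that stood out in stromal cells. HS-5 cells had 58.4 CPM in monoculture (52.6 to 64.8) and 94.7 CPM in coculture (83.0 to 108), a fold of 1.62 (1.37 to 1.91). MM.1S cells had 32.5 CPM in monoculture (29.1 to 36.1) and 36.9 CPM in coculture (27.3 to 48.8), a fold of 1.14 (0.824 to 1.54). Only the HS-5 intervals were apart.

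BBC3 and BIK were sparse. BBC3 (chromosome 19, 47220822 to 47232766, minus strand), whose product PUMA is a classical p53 target, had 9.97 CPM in MM.1S monoculture cells (104 UMIs) and 3.01 CPM in coculture (4 UMIs), a fold of 0.302 with a wide interval of 0.0809 to 0.798. In HS-5 cells it had 6.68 CPM in monoculture (4.79 to 9.06) and 4.84 CPM in coculture (2.5 to 8.45). BIK (chromosome 22, 43110748 to 43129712, plus strand), a BH3-only protein of the endoplasmic reticulum, had 13.9 CPM in MM.1S monoculture cells (145 UMIs) and 5.27 CPM in coculture (7 UMIs), a fold of 0.380 (0.150 to 0.802). In HS-5 cells BIK was near the floor, with 9 UMIs in monoculture and 4 in coculture. Both genes were therefore lower in MM.1S cells in coculture than in monoculture, on 4 and 7 UMIs.

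The pore-forming members were higher in MM.1S cells in coculture. BAX (chromosome 19, 48954815 to 48961798, plus strand) moves from the cytosol to mitochondria when activated. It stood at 11.4 CPM in MM.1S monoculture cells (9.45 to 13.6, 119 UMIs) and 26.4 CPM in coculture (18.4 to 36.7, 35 UMIs), a fold of 2.31 (1.54 to 3.40). In HS-5 cells it stood at 57.5 CPM in monoculture (51.6 to 63.8, 353 UMIs) and 41.5 CPM in coculture (33.9 to 50.3, 103 UMIs), a fold of 0.722 (0.574 to 0.902). As for BCL2L1, the lines moved in opposite directions with intervals apart in each line. The share of all genes with this pattern is not given here, so the pattern does not set these members apart from other genes. The median ratios of all genes also had opposite signs, at 0.24 in MM.1S cells and -0.04 in HS-5 cells on the log2 scale. The promoter of BAX is shown beside that of BCL2L1 because these were the 2 members with such a pattern, and its letters differ: it holds no TATAAA run, but the CCAAT letters (ATTGG on this strand; in 33.0% of all promoters) and the E-box CACGTG (in 6.49% of all promoters, and in BBC3 and BAX among the members). In chr19:48954625-48954814 (plus strand, 190 bases) both are given in capitals:
BAX: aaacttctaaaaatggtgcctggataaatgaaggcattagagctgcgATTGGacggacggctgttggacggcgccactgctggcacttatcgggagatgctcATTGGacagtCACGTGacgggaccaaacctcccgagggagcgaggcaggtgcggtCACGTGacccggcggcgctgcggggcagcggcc

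Such matches of letters are descriptions of these windows and not binding sites. The E-box was added to the search after the promoters were seen, so its share of all promoters is no fair comparison for BAX. Matches to the other motifs searched are not reported. BAK1 (chromosome 6, 33572547 to 33580293, minus strand), which resides in the mitochondrial membrane and is held there by MCL1 and BCL-XL, stood at 6.23 CPM in MM.1S monoculture cells (4.81 to 7.94) and 13.6 CPM in coculture (8.04 to 21.4, 18 UMIs), a fold of 2.18 (1.22 to 3.72). HS-5 cells had 10.1 CPM in monoculture (7.74 to 12.9) and 8.86 CPM in coculture (5.56 to 13.4). The BAK1 values are uncertain, since the annotation holds the copies BAK1P1 and BAK1P2 and GGNBP1 overlaps its exons on the other strand.

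Past 2-fold (a log2 ratio of at least 1 in size, pseudocount 1), 3 of the 7 members with a mean level of 10 CPM or more in MM.1S cells were higher in coculture: MCL1 at 2.43, BCL2L1 at 1.52 and BAX at 1.14. Of all 7836 genes at that level, 19.0% were higher past 2-fold and 5.79% were lower, and no member at that level was lower. With median-of-ratios scaling these shares turned round, to 8.51% higher and 16.2% lower, and MCL1 and BCL2L1 were higher while BIK, then above 10 CPM, was lower. BIK was also lower past 2-fold without mitochondrial and ribosomal protein genes in the total, without immunoglobulin genes and with equal weight per cell. The median log2 ratio of the 7 members was 0.80, against 0.24 for all genes. The other 4 were BCL2L11 at 0.80, PMAIP1 at 0.62, BID at 0.18 and BCL2 at -0.27. Below 10 CPM, BAK1 was at 1.01, BIK at -1.25 and BBC3 at -1.45. In HS-5 cells none of the 5 members at that level passed 2-fold in either direction, beside 1.19% of 8815 genes higher and 1.83% lower. Their median was -0.18, against -0.04 for all genes, with BID at 0.69, PMAIP1 at 0.18, MCL1 at -0.18, BAX at -0.46 and BCL2L1 at -0.87.

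Other properties of the cells moved with these ratios. In MM.1S cells the median share of mitochondrial UMIs was 6.24% in monoculture and 3.62% in coculture, and ribosomal protein genes held 19.4% and 13.2% of UMIs. The ratio was also higher for longer transcripts in MM.1S cells. Over 4 length classes of equal size, the median was -0.12 for the shortest genes and 0.52 for the longest, whereas in HS-5 cells these were 0.17 and -0.16. BAX, of the shortest class with its longest transcript of 1358 bases, had a ratio opposite in sign to the median of its class in both lines. MCL1 and BCL2L1 had ratios of the same sign as the medians of their classes in both lines. With the length trend removed, MCL1, BCL2L1 and BAX still passed 2-fold in MM.1S cells. The part of these properties in the ratios was not tested otherwise. Scaling by medians of ratios in place of totals lowered the median of all genes in MM.1S cells from 0.24 to -0.24, put BAX below 2-fold at 0.68 and left MCL1 at 1.95 and BCL2L1 at 1.08.

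Shares within the family show the same data without the totals. Of the UMIs of the 3 survival members, MCL1 held 47.9% in MM.1S monoculture cells (518 of 1082; Clopper-Pearson interval 44.9 to 50.9%) and 81.9% in coculture (361 of 441; 77.9 to 85.3%). BCL2 held 45.7% and 11.8%, and BCL2L1 6.47% and 6.35%. In HS-5 cells MCL1 held 83.8% in monoculture (82.1 to 85.5%), and its coculture share was 89.0% (86.3 to 91.4%). The MCL1 share of the MM.1S monoculture thus lay below those of the other 3 groups, and its BCL2 share lay above them.

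Over all 10 members, the survival members took 38.3% of the UMIs in MM.1S monoculture cells (36.5 to 40.1%) and 58.5% in coculture (54.9 to 62.0%). The BH3-only members took 55.2% (53.4 to 57.1%) and 34.5% (31.1 to 38.0%). HS-5 cells went the other way: the survival share was 56.7% in monoculture (55.0 to 58.4%), with 48.9% in coculture (46.1 to 51.7%), and the BH3-only share was 30.6% (29 to 32.2%) and 41.2% (38.5 to 44.0%). The summed levels differ in how this came about. In MM.1S cells in coculture the survival members were at 332 against 104 CPM, the BH3-only members at 196 against 150 CPM and the pore-formers at 39.9 against 17.6 CPM. Median-of-ratios scaling turned the direction of the BH3-only members, to 178 in coculture against 190, and kept that of the survival members (302 against 132) and the pore-formers (36.2 against 22.4). In HS-5 cells the survival members were at 249 against 301 CPM and the BH3-only members at 210 against 162 CPM.

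Within the BH3-only class, BID held 45.0% of the UMIs in HS-5 cells in coculture (40.7 to 49.4%) against 36.0% in monoculture (33.0 to 39.0%). PMAIP1 held from 43.2% in the MM.1S monoculture to 55.8% in the HS-5 monoculture. In MM.1S cells BID held 21.7% (19.7 to 23.8%) and 18.8% (14.3 to 24.1%). Over all cells its intervals were thus apart between the lines in both cultures. The same held in the other direction for BCL2L11, with 19.1% and 25.8% in MM.1S cells against 3.21% and 2.87% in HS-5 cells. The monoculture difference in BID levels was smaller in the narrower range of depth used for MCL1, at a log2 ratio of 0.20 against 0.83. There HS-5 cells had 33.3 CPM (25.9 to 42.0) and MM.1S cells 28.8 CPM (19.3 to 41.3), with intervals that overlapped. In coculture the levels in that range were 93.8 CPM (77.1 to 113) and 38.7 CPM (26.8 to 54.1), with intervals apart. BID shares in that range are not given here. UMI shares of different genes also depend on how well each transcript is captured, so they are compared here between groups and not between genes.

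**Figure D1:**
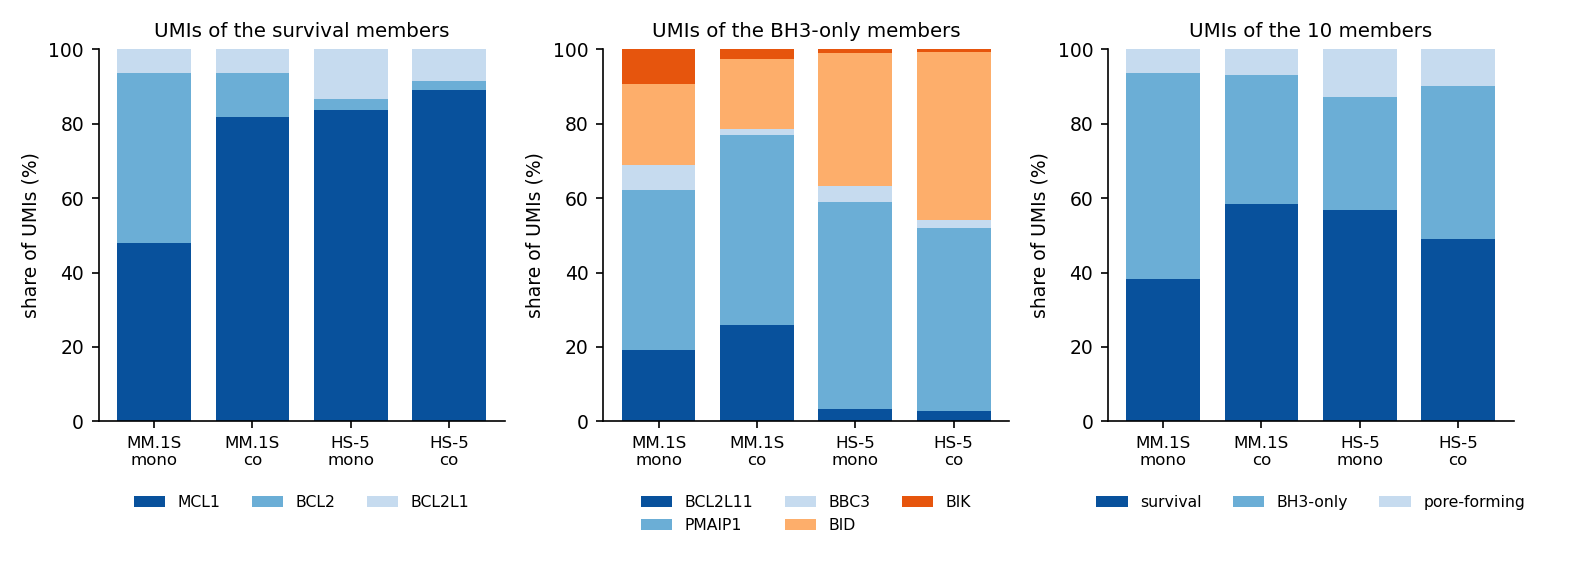
Share of UMIs (%) held by each survival member (left), each BH3-only member (middle) and each of the 3 classes over the 10 members (right), in MM.1S and HS-5 monoculture cells (mono) and coculture (co). MCL1 takes 47.9% of the survival UMIs in the MM.1S monoculture and 81.9 to 89.0% in the other 3 groups.

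To compare single cells at 1 depth, each cell was thinned to 1000 UMIs, which left out 1262 of the 1640 MM.1S cells in coculture and 77 of those in monoculture. A UMI of MCL1 was found in 4.91% of 3870 MM.1S monoculture cells (4.25 to 5.64%) and 20.4% of 378 in coculture (16.4 to 24.8%). In HS-5 cells it was found in 24.0% of 1802 cells in monoculture (22.1 to 26.1%) and 18.9% of 1001 in coculture (16.5 to 21.4%). Before thinning these shares were 11.1%, 18.8%, 28.9% and 21.3%. As a gauge of free RNA, IL6, which MM.1S monoculture cells lacked, was found in 1.06% of the 378 MM.1S cells in coculture and in 52.8% of the 1001 HS-5 cells in coculture, whose median depths before thinning were 1339.5 and 1525 UMIs. The MCL1 share of the MM.1S cells in coculture was higher than their IL6 share. IL6, at 0 CPM in MM.1S and 1210 CPM in HS-5 monoculture cells, meets the limits for HS-5-specific genes. Such genes divided the coculture cells, so the IL6 share was held down by that division and is no independent gauge.

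For the sparser members the shares were small. PMAIP1 was found in 4.88% of MM.1S monoculture cells (4.23 to 5.61%) and 9.52% in coculture (6.76 to 12.9%). BID was found in 3.88% of HS-5 monoculture cells (3.04 to 4.88%) and 9.09% in coculture (7.38 to 11%), and BCL2L1 in 4.72% (3.78 to 5.80%) and 1.6% (0.916 to 2.58%). In MM.1S cells in coculture, BCL2L1 and BAX were each found in 9 of 378 cells (2.38%, interval 1.09 to 4.47%), and BBC3 in 0 of 378, which allows a share of up to 0.794% (3 counts of the total), or 0.971% as the upper end of its Clopper-Pearson interval. Before thinning, 0.244% of all MM.1S cells in coculture had a BBC3 UMI. BIK was found in 0.529% of the 378 cells and BAK1 in 1.32%. IL6 is far more abundant in HS-5 cells in coculture than these members (1200 against at most 8.86 CPM), so its 1.06% is no background level for them. By the estimate from line-specific genes, free RNA would account for 0.152 of the 13.6 CPM of BAK1, 0.0276 of the 5.27 CPM of BIK, 0.0828 of the 3.01 CPM of BBC3, 0.711 of the 26.4 CPM of BAX and 0.366 of the 21.1 CPM of BCL2L1.

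The lines were also compared with each other. Of the 7 members with a mean level of 10 CPM or more in the monocultures, 3 were higher past 2-fold in HS-5 than in MM.1S cells (BCL2L1 by a log2 ratio of 2.41, MCL1 by 2.32 and BAX by 2.24), where 38.1% of 8734 genes were higher. A further 2 were lower (BCL2 at -2.30 and BCL2L11 at -2.26), where 15.3% of genes were lower. Both shares of members have few members behind them and the background is wide. In the coculture, where both lines came from 1 library, the log2 difference of HS-5 from MM.1S cells was 0.02 for BCL2L1, -0.29 for MCL1 and 0.63 for BAX, but -2.51 for BCL2 and -2.87 for BCL2L11. MCL1, BCL2L1 and BAX were thus closer between the lines in coculture, and BCL2 and BCL2L11 were not. The line difference was smaller in coculture for 6 of the 10 members and for 61.9% of the 8860 genes with a mean level of 10 CPM or more over the 4 groups.

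Members also varied between cells of 1 library. In the MM.1S monoculture, cells were divided into terciles by their mitochondrial share (medians 4.26%, 6.24% and 10.1%), and levels were scaled to non-mitochondrial UMIs. PMAIP1 was at 98.4 CPM in the lowest tercile (88.5 to 109), 56.1 in the middle (48.3 to 64.7) and 46.8 in the highest (39.0 to 55.6). MCL1 showed no such slope, with 49.1 CPM (42.2 to 56.8), 54.3 (46.6 to 62.8) and 57.8 (49.1 to 67.5). In MM.1S cells in coculture MCL1 was at 286, 277 and 288 CPM from the lowest to the highest tercile, so that every tercile in coculture lay above every tercile in monoculture. PMAIP1 was at 128, 106 and 78.8 CPM there, with intervals that overlapped.

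Cells were also divided by 18 genes of mitosis, counted after thinning to 1000 UMIs. In the MM.1S monoculture, PMAIP1 was at 36.9 CPM in 2252 cells with 0 such UMIs (29.4 to 45.7) and at 104 CPM in 546 cells with at least 3 (79.1 to 135). MCL1 was at 61.3 CPM (51.5 to 72.4) and 36.6 CPM (22.4 to 56.6) in the same cells, and BCL2 at 62.2 CPM (52.3 to 73.4) and 34.8 CPM (21.0 to 54.3), with intervals that overlapped in both cases. PMAIP1 was thus the member of these 3 whose intervals were apart. Overlap of separate intervals does not show that levels were equal. The values of MCL1 and BCL2 were lower in the cells with at least 3 such UMIs. A cell's place on this range is a score and not a cell type, and 1072 cells lay between the limits. In the HS-5 monoculture, PMAIP1 was at 78.4 CPM (47.9 to 121) and 110 CPM (92.0 to 130), and BID at 70.6 CPM (41.8 to 112) and 33.6 CPM (24.1 to 45.6), again with overlapping intervals.

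The contrast of PMAIP1 between cultures changed with such cells. Among MM.1S cells with 0 mitosis UMIs after thinning, PMAIP1 was at 36.9 CPM in monoculture and 100 CPM in coculture (15 UMIs), a log2 ratio of 1.41. A second random draw of the thinning gave 1.76 (17 UMIs in coculture). Among cells with under 5% mitochondrial UMIs the ratio was 0.13, against 0.62 over all cells. MCL1 kept a ratio of at least 1.95 under all 15 settings.

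**Figure D2:**
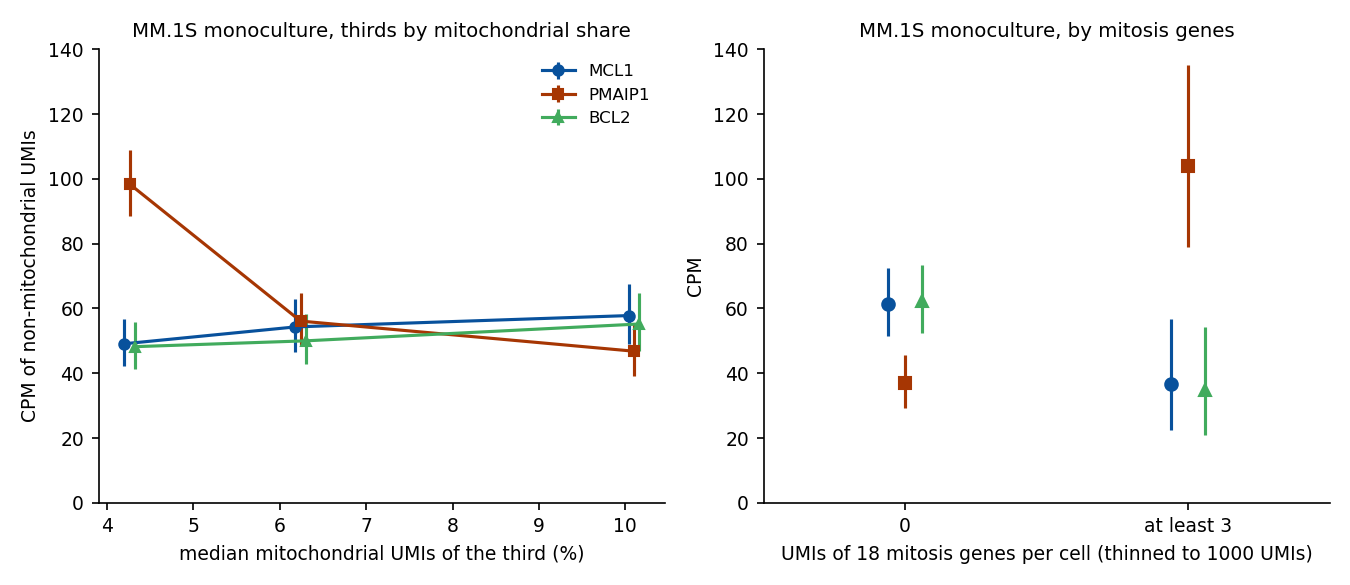
Level of MCL1, PMAIP1 and BCL2 in MM.1S monoculture cells with 95% Poisson intervals: left, in terciles by mitochondrial share, against the median share of the tercile; right, in cells with 0 and with at least 3 UMIs of 18 mitosis genes. PMAIP1 goes from 98.4 to 46.8 CPM across the terciles and from 36.9 to 104 CPM between the classes, whereas the intervals of MCL1 and BCL2 overlap.

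The genes whose pattern over the 4 groups was most like that of a survival member were found by the Euclidean distance of centred log2(CPM + 1) among 8860 genes. Nearest to MCL1 were ECE1 (0.07), RNF19B (0.10) and LONP1 (0.12), nearest to BCL2 were IKZF1 (0.12), F12 (0.13) and CARMIL1 (0.19), and nearest to BCL2L1 were GSK3A (0.16), EXTL3 (0.16) and DNAAF5 (0.19). ECE1, for example, had 10.2, 58.0, 55.5 and 45.5 CPM in MM.1S and then HS-5 cells, monoculture first. With 4 points for each gene, such closeness is a description.

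Genes that work with the family were followed by fixed lists, counted among members with at least 10 CPM. Of all genes at that level, 19.0% were higher past 2-fold and 5.79% lower in MM.1S cells. In HS-5 cells these shares were 1.19% and 1.83%. The MM.1S shares turned round with median-of-ratios scaling, as given above. Of the rest of the BCL2 family, 6 of 14 were at that level in MM.1S cells: none was higher past 2-fold, and the mitophagy receptors BNIP3L (148 to 60.3 CPM, -1.29) and BNIP3 (88.0 to 38.4 CPM, -1.17) were lower. BCL2L13 (-0.15) and BECN1 (-0.28) were the highest of the list. In HS-5 cells 9 were at that level, with BNIP3 at 0.65 and BNIP3L at 0.61 the highest and BOK (20.5 to 9.67 CPM, -1.01) and BCL2L2 (-0.71), a survival gene, the lowest. BNIP3 and BNIP3L were thus lower in coculture in MM.1S cells and higher in HS-5 cells. The survival gene BCL2A1 had 37.3 CPM in HS-5 monoculture cells and 41.9 in coculture and 1 UMI in each group of MM.1S cells.

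Downstream of the pore, 13 of 19 genes of the apoptosome, the caspases and their inhibitors were at that level in MM.1S cells: 3 were higher past 2-fold and none lower, near the background of 19.0% and 5.79%, led by BIRC6 (19.0 to 52.0 CPM, 1.41), an inhibitor of apoptosis. CASP8, the death receptor caspase that cleaves BID, was the lowest (62.1 to 37.7 CPM, -0.71), followed by BIRC5 (-0.33). In HS-5 cells none of 13 passed 2-fold, from APAF1 (0.44) and CASP6 (0.42) to BIRC6 (-0.57) and BIRC3 (-0.76). Of 10 partners at the outer membrane, 2 were higher past 2-fold in MM.1S cells and none lower, also near the background of 19.0% and 5.79%. These were MFN2 (16.8 to 56.5 CPM, 1.69) and MFN1 (1.02), which fuse mitochondria. Ratios were above 0 for 8 of the 10, and VDAC3 (-0.04) and TSPO (-0.75) were the lowest. None passed 2-fold in HS-5 cells, where VDAC2 (0.63), which binds BAK, was the highest, before VDAC3 (0.39), and MFN2 (-0.40) and TOMM22 (-0.58) the lowest.

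Of the 9 genes that set how long MCL1 protein lasts, 7 were at that level in MM.1S cells. Of these, 4 were higher past 2-fold and none was lower, beside 19.0% and 5.79% of all genes. Their median was 1.14, against 0.24 for all genes. The highest were BAG3 (5.08 to 24.1 CPM, 2.05), a co-chaperone, and FBXW7 (13.9 to 43.7 CPM, 1.59), a ubiquitin ligase subunit that marks MCL1 for degradation, and the lowest were HUWE1 (0.55), another MCL1 ligase, and GSK3B (0.53), the kinase that primes it. In HS-5 cells none of 9 passed 2-fold, from BAG3 (0.14) and TPT1 (0.02) to HUWE1 (-0.80) and GSK3A (-0.87). Members of this list act in opposite directions on MCL1 protein, which was not measured.

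PMAIP1 and BBC3 are p53 targets, and PMAIP1 is also induced by ATF4. Of 20 other p53 targets, 14 were at that level in MM.1S cells, 3 higher (ZMAT3 and GADD45A each at 1.59 among them) and 1 lower (BTG2, 201 to 61.0 CPM, -1.70), with TP53INP1 next at -0.97. These counts were also near the background. In HS-5 cells 1 of 14 was lower, SESN2 (22.0 to 9.27 CPM, -1.16), followed by AEN (-0.71), with CCNG1 (0.56) and DDB2 (0.22) the highest. Of 12 genes of the ATF4 and CHOP stress response, ATF4 itself stood at 88.6 CPM in monoculture and 372 CPM in coculture in MM.1S cells (2.06), followed by DDIT4 (0.70), and PPP1R15A (-1.35) and HERPUD1 (-0.92) were the lowest. In HS-5 cells ATF4 had 237 and 125 CPM, HERPUD1 (0.43) and DDIT4 (0.33) were the highest, and TRIB3 (-1.47) and SESN2 (-1.16) were the lowest and both past 2-fold. The medians were -0.43 in MM.1S and -0.04 in HS-5 cells, beside 0.24 and -0.04 for all genes.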

How the data were processed

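The authors deposited whole-number UMI counts per gene and cell barcode, 1 table for each of 3 Drop-seq libraries, without normalization. The coculture lasted 4 h by the labels and methods and 2 h by another passage of the study's text. The submitters' processing notes name Cell Ranger 3.0.2, UMI-tools 1.0.0, STAR 2.5.3a, featureCounts 1.6.4 and SAMtools 1.9 and the build GRCh38, with no roles; the annotation and the choice of barcodes are not given in the sources used here. The tables held no normalized columns.

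Barcodes with 200 genes or more entered as cells. Line-specific genes had at least 50 CPM in their own monoculture and at least 50 times the level of the other (set to no less than 3 counts). A coculture cell was taken as MM.1S where under 0.2 of its line-specific UMIs were of HS-5 and as HS-5 where over 0.8 were; cells between, or with under 5 such UMIs, were left out as likely doublets, and no other doublet step was used. Counts were summed per group and scaled to CPM. Log2 ratios have a pseudocount of 1 CPM and folds none; a call is 2-fold at a mean level of 10 CPM or more. Intervals are exact Poisson, Clopper-Pearson or, for folds, from the binomial split of the UMIs. The line-specific genes of the other line also gave the estimate of free RNA. Steps were tested on simulated data. Coordinates and lengths are from GENCODE release 29 and promoters from RefSeq (GRCh38.p14) (8 of the 10 members, without MCL1 and BIK). Alternatives were other scalings, cell filters, depths, pseudocounts, minimum levels, limits for the line split, subtraction of free RNA, equal weight per cell and removal of the length trend. Of the motifs searched on both strands, the TATA, CCAAT and E-box letters are reported, the last added after the promoters were seen, and those of STAT, NF-kB, CREB and SP1 are not.

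The members and all gene lists were chosen with earlier results of these data known. Named beside the members are the 2 highest and 2 lowest ratios of each list in each line and the 3 genes nearest to each survival member, except that 1 gene of these lists is not reported here. Tools were python 3.11.15, numpy 2.4.6, scipy 1.17.1, pandas 2.3.3, statsmodels 0.14.6 and matplotlib 3.10.9.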

Additional observations from a re-analysis of the deposited data

Results flagged for a closer look

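Some genes were higher in coculture in 1 line and lower in the other, with counting intervals of both cultures apart in each line. Their mean level over both cultures was at least 10 CPM in each line. With 1 library per condition, the difference between the lines was not tested. The share of all genes with this pattern is not given here, so the pattern cannot be set against a background. The median ratios of all genes were 0.24 in MM.1S cells and -0.04 in HS-5 cells. Among the members, those with this pattern were BCL2L1, with log2 ratios of 1.52 in MM.1S cells and -0.87 in HS-5 cells, and BAX, with 1.14 and -0.46. Both kept these signs under every alternative that gave a value.

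Among the other genes named above, ATF4 stood at 2.06 in MM.1S cells and -0.92 in HS-5 cells, MFN2 at 1.69 and -0.40, FBXW7 at 1.59 and -0.60, GADD45A at 1.59 and -0.59, and BIRC6 at 1.41 and -0.57. BIRC3 stood at 0.95 and -0.76, TOMM22 at 0.56 and -0.58, and HUWE1 at 0.55 and -0.80. The opposite order was seen for BNIP3L, at -1.29 in MM.1S cells and 0.61 in HS-5 cells, for BNIP3, at -1.17 and 0.65, and for HERPUD1, at -0.92 and 0.43.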

How the results depend on the processing

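No paired analysis was possible because each condition is 1 library and the labels give no replicate numbers. In MM.1S cells the count of members past 2-fold (3) was 6 with no minimum level, 1 with a minimum of 50 CPM and 5 with equal weight per cell, and the median (0.80) was 0.32 with median-of-ratios scaling, 1.53 with a minimum of 50 CPM, which leaves 2 members, and 1.64 with cells of 0 mitosis UMIs, which leaves 6. In HS-5 cells the count (0) was 2 with cells of 500 to 1500 UMIs and with equal weight per cell, BID higher and BCL2L1 lower in both, where the shares of all genes higher and lower went from 1.19% and 1.83% to 6.75% and 5.36% and to 4.41% and 3.57%. There the median (-0.18) was 0.18 with a minimum of 50 CPM and -0.63 with cells of 0 mitosis UMIs, where 12.3% of all genes were higher and 13.8% lower. Between the monocultures the count (5) was 1 with a minimum of 50 CPM. The BH3-only share of the MM.1S monoculture (55.2%) was 60.5% with under 5% mitochondrial UMIs and 46.7% with 500 to 1500 UMIs, still above the 34.5% of the coculture. The cause of these shifts was not tested beyond what each setting leaves out. No ratio past 2-fold changed sign. Of 465 other values, 392 stayed within their counting intervals and 73 did not. These values include shares of cells with a UMI after thinning to 500 UMIs, set against intervals at 1000 UMIs. Lower depth by itself lowers such shares, as for MCL1 in MM.1S monoculture cells (4.91% at 1000 UMIs, 2.41% at 500). The 73 are thus not all effects of processing on levels. BCL2 in MM.1S cells ran from -0.85 to 0.27 and BID from -0.30 to 1.53, so neither has a settled direction. For each gene 14 of 15 settings kept the sign of the main ratio. The positive BCL2 value came from cells with 0 mitosis UMIs in the second draw (9 UMIs in coculture). The first draw gave -0.41 (7 UMIs). The settings without shared barcodes and with 0 mitosis UMIs (136 MM.1S cells in coculture, in the second draw of the thinning) were chosen after seeing the data. Members with 3 or fewer UMIs in a group under an alternative were left out of its counts and medians. Depth limits BBC3, which under 5 alternatives had 3 or fewer UMIs in MM.1S cells in coculture and no value.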
